A study of Mus musculus with 30 samples.

Results

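The S100 genes S100a8, S100a9, S100a4, S100a6, S100a10, S100a11, S100a1 and S100a13 were measured in F4/80+ macrophages of Eµ-TCL1 mice, in which a leukaemia resembling human chronic lymphocytic leukaemia develops. They were taken as every array probe whose platform symbol, or older synonym, is one of these names. Each gene had 1 probe, so 8 of the 45281 probes, and 8 of the 11937 genes tested, are described. All 8 were detected at a detection p under 0.05 on each of the 30 arrays.

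S100 proteins are small calcium-binding proteins with EF-hand motifs that mostly act as dimers, inside the cell on partner proteins and, for some of them, outside it as danger signals. S100A8 and S100A9 pair to form calprotectin, which fills the cytosol of neutrophils and, at lower amounts, of monocytes, and which chelates metal ions and engages TLR4 and RAGE once released. Maturing tissue macrophages lose most of their calprotectin, whereas S100A4, S100A6, S100A10 and S100A11 are also made by many other cells.

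Macrophages had been sorted by FACS from the spleen (SP) or bone marrow (BM) and lysed in Trizol, and their RNA was hybridised as biotin-labelled cRNA to Illumina bead arrays. Every mouse was C57BL/6 and TCL1+/wt, so the controls carry the transgene as well, and the Eµ enhancer directs it mainly to B cells, not to the sorted macrophages. KO mice were Mif-/- and lacked macrophage migration inhibitory factor, a secreted cytokine, in all cells, and WT mice were Mif+/+. Mice were leukaemic (l) or non-leukaemic (nl). In the spleen there were 4 arrays of KO-l, 3 of KO-nl, 3 of WT-l and 3 of WT-nl, and in the marrow there were 6 arrays of KO-l, 3 of KO-nl, 5 of WT-l and 3 of WT-nl. The labels give an age of 2 to 5 months for every leukaemic group and 10 to 15 months for every non-leukaemic group, so leukaemia and age cannot be told apart. These ages are as the labels have them and run opposite to the order of a leukaemia that develops with age in this model. Whether arrays of different groups came from the same mouse is not given, and the p-values below measure the spread between arrays only.

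All 8 genes lie on mouse chromosome 3, and their order along it in the RefSeq annotation is S100a1, S100a13, S100a4, S100a6, S100a8, S100a9, S100a11, S100a10. No protein-coding gene lies between S100a1 and S100a13, between S100a8 and S100a9 or between S100a11 and S100a10, while 56 lie between S100a9 and S100a11. The RefSeq promoter table (GRCm38.p6) held 7 of the 8 genes. The 250 bases before the start of S100a8 (chr3:90668821-90669070, plus strand) and of S100a9 (chr3:90695722-90695971, minus strand) are shown because these neighbours had the largest differences and moved together. Those of S100a4 (chr3:90603520-90603769, plus strand) are shown as a family member from the same cluster that was not called between the tissues. Each is written in the direction of its gene, and capitals mark matches to 3 motifs searched on both strands: the TATA box TATAAA, the C/EBP motif TTGCNNAA and the PU.1 motif GAGGAAG, whose reverse complement is CTTCCTC.
S100a8: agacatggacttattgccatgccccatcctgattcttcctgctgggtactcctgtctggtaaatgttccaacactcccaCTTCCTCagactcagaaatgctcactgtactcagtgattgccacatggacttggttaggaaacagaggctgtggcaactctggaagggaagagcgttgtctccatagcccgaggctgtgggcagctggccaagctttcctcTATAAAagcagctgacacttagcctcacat
S100a9: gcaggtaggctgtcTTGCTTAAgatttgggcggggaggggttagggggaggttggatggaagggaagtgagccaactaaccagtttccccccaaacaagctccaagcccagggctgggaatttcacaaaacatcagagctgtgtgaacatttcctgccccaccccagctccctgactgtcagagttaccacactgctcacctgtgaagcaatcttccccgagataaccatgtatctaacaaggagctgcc
S100a4: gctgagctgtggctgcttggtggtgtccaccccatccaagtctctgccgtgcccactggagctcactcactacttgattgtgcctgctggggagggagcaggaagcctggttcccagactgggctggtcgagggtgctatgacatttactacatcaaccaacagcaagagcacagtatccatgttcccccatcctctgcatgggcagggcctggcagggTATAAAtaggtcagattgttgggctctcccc
S100a8 has a TATA box whose first base is 30 bases before the gene start, and a PU.1 match on the opposite strand that begins 171 bases before it. S100a9 has 1 C/EBP match that begins 236 bases before its start, and S100a4 has a TATA box 31 bases before its start. S100a6, S100a11, S100a1 and S100a13 have none of these letters in their windows. Among the 32851 promoters of the table, 12.4% hold the TATA motif, 9.56% the C/EBP motif and 10.6% the PU.1 motif in the same window, so a match is a description of these letters and not evidence of binding. S100a1 and S100a13 are read in opposite directions, and their promoter entries, which also take in the first bases of each gene, share 204 bases.

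The arrays matched their genotype labels: normalised Mif was 4.14 to 5.07 on KO arrays and 10.41 to 12.38 on WT arrays. Levels are given as normalised log2 intensity throughout, and levels of different genes are not compared, since probes differ in brightness. Adgre1, which encodes F4/80, was detected on all 30 arrays (7.70 to 10.75), as was Csf1r. Of the C1q genes, markers of resident macrophages, C1qa was detected on 20 arrays, C1qb on 29 and C1qc on 30. For 3 spleen arrays the best correlation was with a marrow array: WT-l-SP replicate 3, KO-l-SP replicate 2 and KO-nl-SP replicate 6. WT-nl-SP replicate 1 had the lowest best correlation with any other array, 0.919. Slide 6 of the 6 slides held 6 leukaemic marrow arrays and nothing else.

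In spleen macrophages both calprotectin genes were lower than in marrow macrophages, S100a8 by 3.56-fold and S100a9 by 4.08-fold, as the mean of the 4 genotype and leukaemia classes. S100a10, the partner of annexin A2, and S100a13, a protein that takes part in the release of leaderless cytokines, were also lower in spleen, by 1.49-fold and 1.24-fold. The other 4 genes did not pass the test, although each fitted difference was below 0. Of those 4, S100a1 and S100a6 were called lower with array weights (-0.39 and -0.22; limma adjusted p = 0.0212 and 0.0389), and S100a1 and S100a11 with the authors' deposited log2 values (-0.23 and -0.49; limma adjusted p = 0.00682 and 0.0157). With these settings 3241 and 3276 of all genes were called, against 1880 in the main fit. In this comparison 4 of 8 S100 genes were called, all lower in spleen, against 15.7% of all genes called and 7.25% called lower (limma, Benjamini-Hochberg adjusted p under 0.05). The median difference of the 8 genes was -0.35 on the log2 scale, against 0.0092 over all genes.

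S100a8 read 11.51, 13.43, 13.34 and 10.30 in KO-l-SP, against a lowest of 12.89, a median of 13.69 and a highest of 13.92 in KO-l-BM. In KO-nl it read 12.29, 11.37 and 13.48 in spleen, against 13.83, 13.34 and 13.70 in marrow. Marrow arrays of KO mice lay close together at the top of the scale, and the spleen arrays spread from that level down by over 3 log2 units. In WT-l, S100a8 read 9.45, 9.04 and 13.61 in spleen, against 12.06, 13.66, 11.79, 13.62 and 12.76 in marrow. In WT-nl it read 9.51, 11.21 and 9.94 in spleen, against 13.15, 13.39 and 11.81 in marrow, the one class of the 4 in which spleen and marrow did not overlap. The high value in WT-l-SP, 13.61, belongs to replicate 3, one of the arrays that correlated best with marrow. Averaged over the 4 classes, S100a8 was 11.36 in spleen and 13.19 in marrow, a difference of -1.83 ± 0.41 (SE; limma adjusted p = 0.00379).

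S100a9 read 10.51, 12.54, 12.73 and 9.59 in KO-l-SP, against a lowest of 12.15, a median of 12.93 and a highest of 13.41 in KO-l-BM. In KO-nl it read 11.76, 10.57 and 12.35 in spleen, against 13.29, 12.13 and 13.09 in marrow. These values follow S100a8 array by array: the same 2 KO-l-SP arrays are high and the same 2 are low. In WT-l, S100a9 read 8.47, 7.09 and 13.10 in spleen, against 11.04, 12.93, 11.90, 13.29 and 12.05 in marrow. In WT-nl it read 8.51, 10.54 and 8.92 in spleen, against 12.43, 12.65 and 10.74 in marrow, and again only this class had no overlap. Averaged over the 4 classes, S100a9 was 10.45 in spleen and 12.48 in marrow, a difference of -2.03 ± 0.48 (SE; limma adjusted p = 0.00517).

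**Figure D1:**
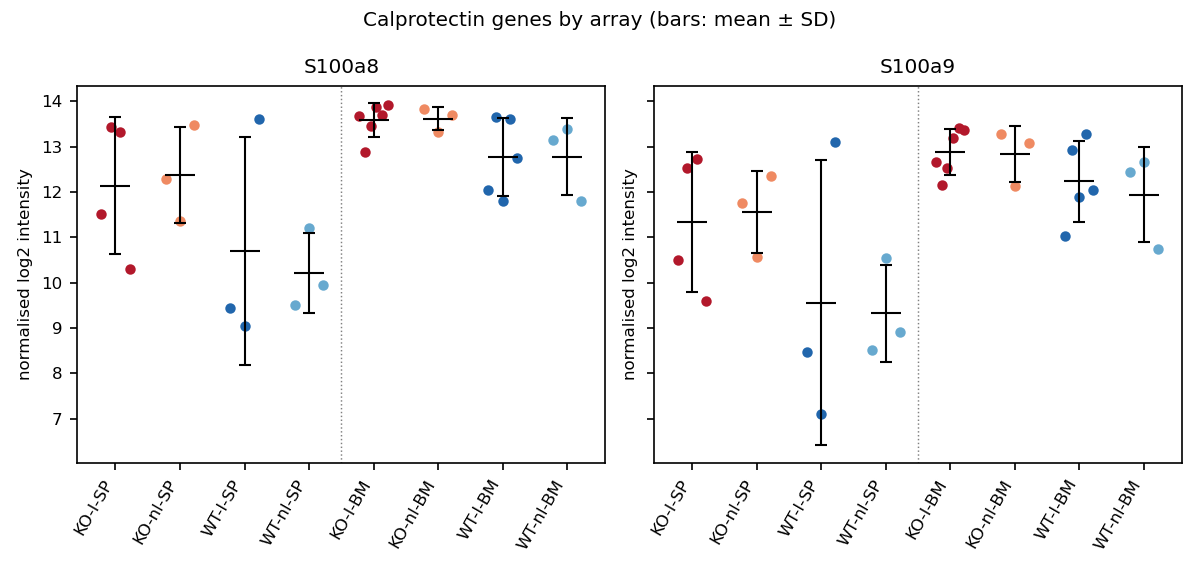
Normalised log2 intensity of S100a8 (left) and S100a9 (right), with 1 point per array, in the 4 spleen groups and, right of the dotted line, the 4 marrow groups; bars give the mean ± SD. S100a8 ran from 9.04 to 13.61 in spleen arrays and from 11.79 to 13.92 in marrow arrays, and the single high WT-l-SP point is replicate 3.

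Both calls held in each of 42 alternative fits, with S100a8 between -2.24 and -1.62 and S100a9 between -2.55 and -1.72. Without the 3 arrays that stand apart, S100a8 differed by -2.21 ± 0.32 and S100a9 by -2.47 ± 0.36. Among those arrays, WT-l-SP replicate 3 and KO-l-SP replicate 2 were nearest to marrow arrays, and leaving them out in part builds in a larger difference. WT-nl-SP replicate 1, also left out, was nearest to a spleen array (0.919) and had the lowest S100a8 of its group (9.51). KO-nl-SP replicate 6, which was nearest to a marrow array too, stayed in the fit. The values are thus a description. In the separate classes the S100a8 difference was -1.44 ± 0.70 in KO-l, -1.24 ± 0.89 in KO-nl, -2.08 ± 0.80 in WT-l and -2.56 ± 0.89 in WT-nl, none of them past the adjusted threshold. For S100a9 the class differences were -1.55 ± 0.81, -1.28 ± 1.03, -2.69 ± 0.92 and -2.61 ± 1.03 in the same order. Without WT-l-SP replicate 3 the WT-l difference reached -3.53 for S100a8 and -4.46 for S100a9, and both were then called (limma adjusted p = 0.0294 and 0.0124). Within slides that held both tissues of a class, 6 of 7 spleen minus marrow differences were below 0 for each gene. The exception, 0.49 for both, was the KO-l class on slide 2, where the spleen arrays are replicates 2 and 3.

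Genes of neutrophil granules were lower in spleen alongside calprotectin. All 5 primary granule genes tested were called lower (median difference -2.82), among them Mpo, myeloperoxidase, at -3.28 ± 0.53 and Elane, neutrophil elastase, at -3.18 ± 0.56 (limma adjusted p = 0.000216 and 0.00042). Of 13 secondary granule and later neutrophil genes, 9 were called lower (median -2.18), with Ltf, lactoferrin, at -2.73 ± 0.65 and Camp, cathelicidin, at -2.48 ± 0.61 (limma adjusted p = 0.00578 and 0.00726). The mean level of the 13 genes was 5.92 to 11.48 on spleen arrays and 7.77 to 11.74 on marrow arrays, and 9 to 13 of them were detected on any spleen array, against 11 to 13 on any marrow array. Their summed linear level was 1637 to 84487 in spleen and 10563 to 91575 in marrow. None of the 13 was undetected throughout, and the highest spleen value was that of WT-l-SP replicate 3. The macrophage identity list ran the other way, with 6 of 14 genes called higher in spleen (median 0.96), led by Spic, the transcription factor of red pulp macrophages, at 2.75 ± 0.26 (limma adjusted p = 7.6e-07). Eosinophil genes were lower too, 3 of 5, with Prg2, a granule protein gene, at -3.99 ± 0.57 (limma adjusted p = 7.36e-05). Of the other lists, 2 of 7 monocyte genes and 1 of 6 B cell genes were called higher in spleen, 2 of 7 erythroid genes lower, and 0 of 6 megakaryocyte and 0 of 6 T and NK cell genes either way (limma; 1 and 3 at an unadjusted p under 0.05). The other 5 monocyte genes were below 0, the median of the 7 was -0.46, and 5 of the 7 had an unadjusted p under 0.05, so the monocyte list had no single direction. The part of neutrophil transcripts in the calprotectin difference was not tested, and in sorted bulk samples fewer cells of a type and less RNA per cell cannot be told apart.

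**Figure D2:**
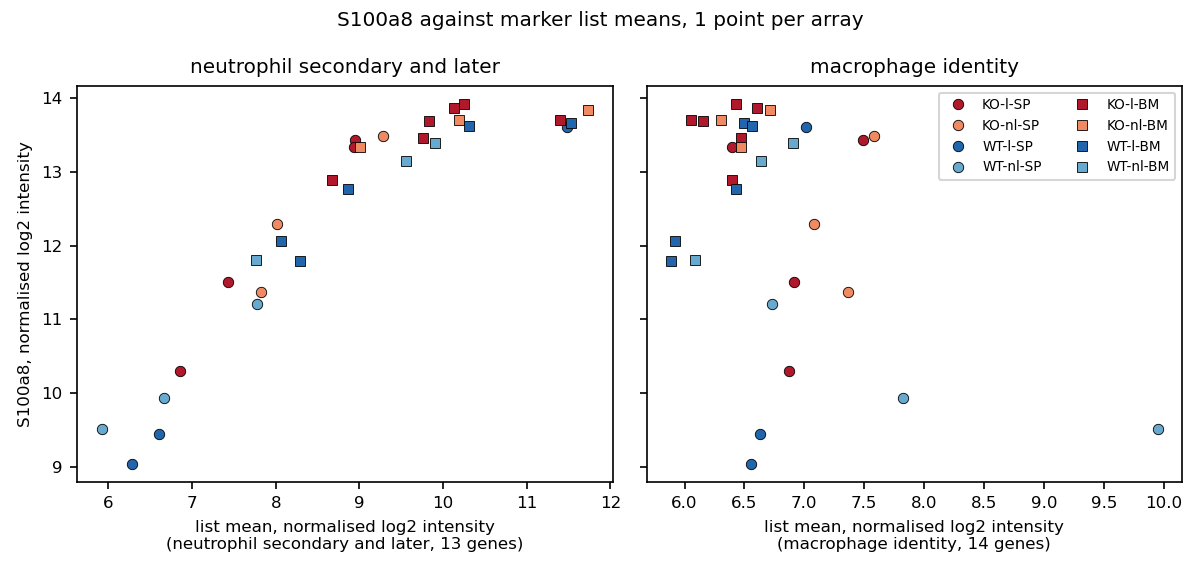
S100a8 (vertical, normalised log2 intensity) against the mean of 13 secondary granule and later neutrophil genes (left) and of 14 macrophage identity genes (right), with 1 point per array, circles for spleen and squares for marrow. S100a8 rises with the neutrophil list and flattens near the top of the scale, and against the macrophage list WT-nl-SP replicate 1 stands alone at the right with a list mean of 9.95.

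Over the 30 arrays S100a8 and S100a9 had a Pearson correlation of 0.982 (Spearman 0.963), which was 0.986 over the 13 spleen arrays and 0.913 over the 17 marrow arrays. Without the 2 arrays farthest from the median of S100a8 it was 0.979, and after removal of group means 0.967. The genes most like S100a8 among 9174 compared were Camp (0.978), Ltf (0.976), Lcn2 (0.954), Ngp (0.925) and Mgst2 (0.858); the first 4 encode neutrophil granule proteins. Camp, Ltf and Lcn2 also led for S100a9 (0.980, 0.974 and 0.936). With the mean of the neutrophil list S100a8 correlated at 0.907 over all arrays, 0.907 in spleen and 0.851 in marrow. With the macrophage identity list its correlation was -0.40, and -0.039 without the 2 arrays farthest from that list's median. It was -0.20 in spleen and 0.60 in marrow, and 0.50 and 0.30 without the 2 farthest arrays of each tissue. The negative value over all arrays thus did not hold in marrow, and in spleen it rested on the 2 farthest arrays. These arrays share groups, slides and the same cell mixture, so the values describe the data and carry no test. S100a8 intensity before normalisation ran from 536 to 18005, where the brightest probe of any array read 22774.

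S100a10, also called p11, binds annexin A2 at the cell surface. It read 8.73, 8.73, 8.75 and 8.95 in KO-l-SP, against a lowest of 9.27, a median of 9.70 and a highest of 10.52 in KO-l-BM, with no overlap. In KO-nl it read 9.30, 9.73 and 9.24 in spleen, against 8.46, 9.27 and 8.85 in marrow, where the spleen mean was the higher one and the ranges overlapped. The KO-nl class was thus the one of the 4 in which the fitted S100a10 difference was above 0, at 0.56 ± 0.42, and it was not called. In KO-nl 4 of the 8 S100 genes were above 0, the others being S100a4 (0.66 ± 0.63), S100a6 (0.26 ± 0.18) and S100a13 (0.13 ± 0.19). Above 0 in WT-l were 2 genes, S100a11 (0.19 ± 0.37) and S100a1 (0.057 ± 0.28). None of these was called. In WT-l, S100a10 read 9.63, 8.98 and 8.26 in spleen, against 9.46, 8.95, 10.07, 10.10 and 10.36 in marrow. In WT-nl it read 7.19, 8.90 and 8.97 in spleen, against 9.45, 8.99 and 9.60 in marrow, with every spleen array below every marrow array. Its mean difference was -0.57 ± 0.20 (limma adjusted p = 0.0484). That call rested on little: 13 of 42 alternatives kept it, the adjusted p ranged from 0.0184 to 0.337, and with slide 6 left out the difference was -0.31 ± 0.19 (limma adjusted p = 0.337). Without the 3 arrays that stand apart it was -0.34 ± 0.17 (limma adjusted p = 0.178). Among them is WT-nl-SP replicate 1, the lowest S100a10 array at 7.19, and without that array alone the difference was -0.43 ± 0.17.

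S100a13, which joins FGF1 and interleukin 1 alpha in the complexes that release them without a signal peptide, had the smallest spread of the called genes. It read 8.44, 8.48, 8.22 and 8.23 in KO-l-SP, against a lowest of 8.40, a median of 8.62 and a highest of 8.82 in KO-l-BM. In KO-nl it read 8.19, 8.58 and 8.32 in spleen, against 8.29, 8.42 and 7.99 in marrow. The ranges overlap in both KO classes, and in KO-nl the difference was above 0, at 0.13 ± 0.19. In WT-l it read 8.54, 8.26 and 8.28 in spleen, against 8.70, 8.54, 9.11, 8.74 and 8.71 in marrow, and in WT-nl 7.54, 8.41 and 7.93 in spleen, against 8.74, 8.33 and 8.98 in marrow. The mean difference was -0.32 ± 0.09 (limma adjusted p = 0.0171), and it was not called with slide as a block (-0.26 ± 0.10; limma adjusted p = 0.105) or without slide 6 (-0.28 ± 0.10; limma adjusted p = 0.0896). S100a13 in WT-nl was also the single call of an S100 gene within a class, at -0.72 ± 0.19 (limma adjusted p = 0.0363), where 3.86% of all genes were called. WT-nl-SP replicate 1 is its lowest array, and without that array the class difference was -0.51 ± 0.20 (limma adjusted p = 0.225). No S100 gene was called in KO-l, KO-nl or WT-l (limma), where 2.35%, 0% and 0.0168% of all genes were, and 2, 0 and 5 of the 8 had an unadjusted p under 0.05.

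S100a4, which binds non-muscle myosin and promotes cell motility, differed by -0.39 ± 0.29 between spleen and marrow and was not called (limma adjusted p = 0.402; 95% interval -0.99 to 0.22). Its lowest arrays were WT-l-SP replicate 3 at 5.71 and KO-l-SP replicate 3 at 6.19, and its highest spleen array read 8.58. Leaving out the 3 arrays that stand apart, WT-l-SP replicate 3 among them, moved the difference to -0.072 ± 0.27. In KO-nl S100a4 ran the other way, with every spleen array (7.79 to 8.40) above every marrow array (6.96 to 7.75). S100a6, calcyclin, had the narrowest range of the 8 genes, 9.52 to 10.36 in spleen and 9.61 to 10.51 in marrow, and differed by -0.21 ± 0.08 (limma adjusted p = 0.0962). S100a11, a partner of annexin A1, read 10.58 to 13.32 in spleen and 12.02 to 13.59 in marrow and differed by -0.30 ± 0.19 (limma adjusted p = 0.309). Its lowest array by far was WT-nl-SP replicate 1, at 10.58, against 12.63 and 12.79 in the other 2 arrays of that group. S100a1, best known as a regulator of calcium handling in heart muscle, read 5.67 to 6.83 in spleen and 5.74 to 7.30 in marrow and differed by -0.30 ± 0.14 (limma adjusted p = 0.152).

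**Figure D3:**
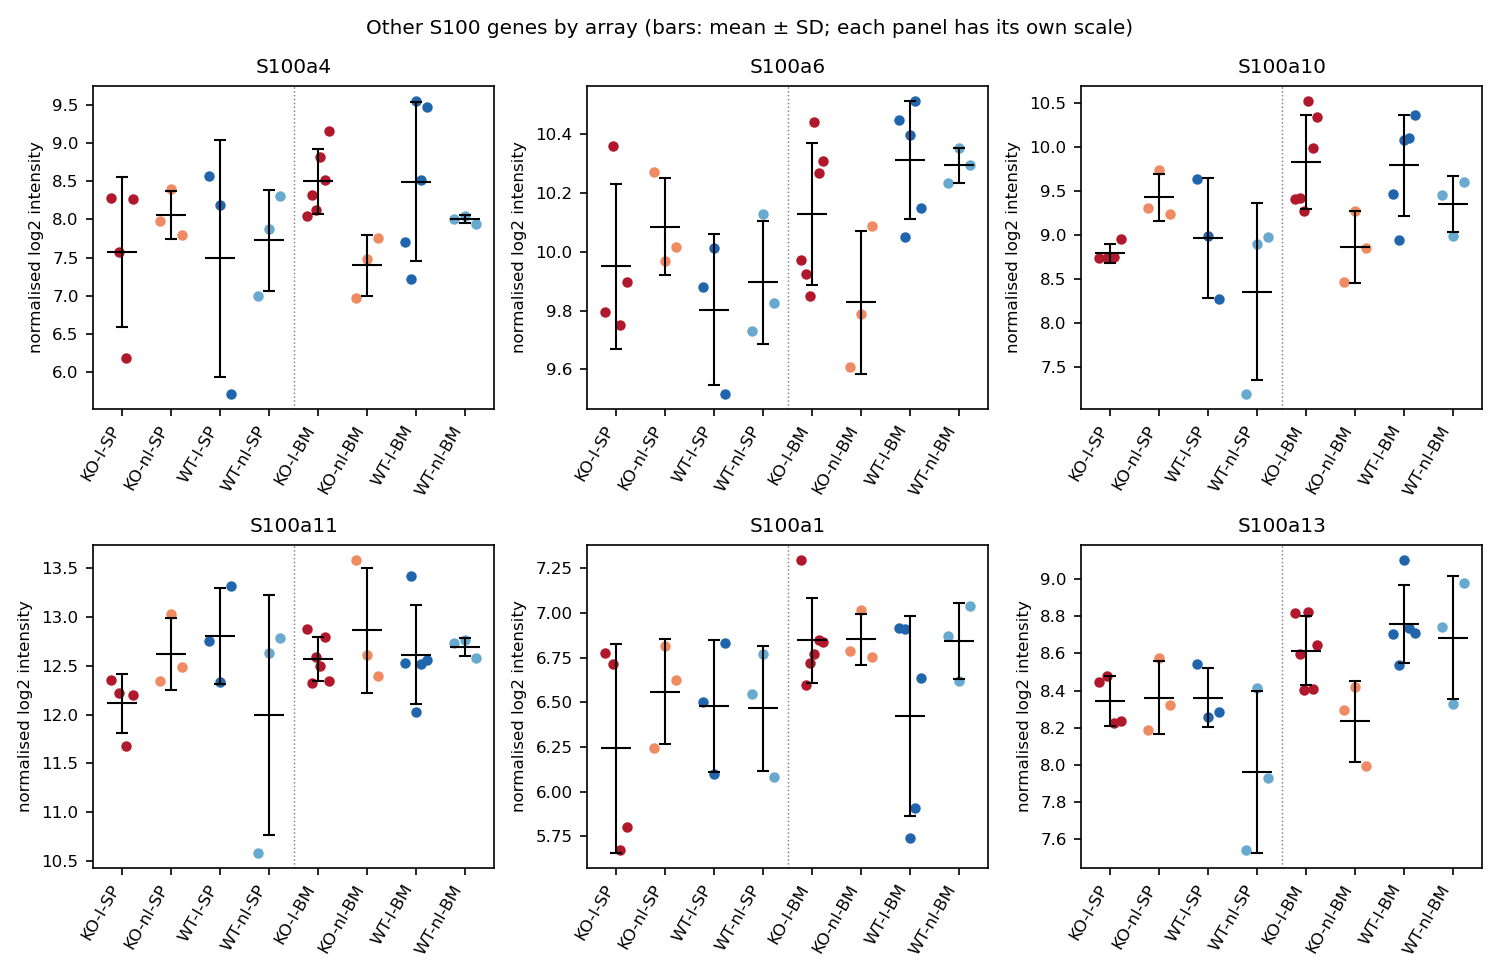
Normalised log2 intensity of the other 6 S100 genes, with 1 point per array, in the 4 spleen groups and, right of the dotted line, the 4 marrow groups; bars give the mean ± SD and each panel has its own scale. S100a10 in KO-l-SP (8.73 to 8.95) lies below all KO-l-BM arrays, and the KO-nl groups run the other way.

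Partner, receptor and regulator genes gave few calls in the same comparison. Of 11 binding partners 1 was called lower, Anxa11 at -0.69 ± 0.22 (limma adjusted p = 0.0328), a calcium-dependent membrane-binding protein. None of 6 receptor genes was called by limma, and 2 had an unadjusted p under 0.05: Emb at -0.91 ± 0.32 and Nptn at 0.24 ± 0.08 (adjusted p = 0.0543 and 0.0554), which encode membrane glycoproteins of the basigin family. The NADPH oxidase, which S100A8 and S100A9 help to activate in phagocytes, had 1 of 5 genes called lower, Ncf1 at -0.89 ± 0.21 (limma adjusted p = 0.00573). Among 10 myeloid transcription factors, Cebpe, which drives secondary granule genes, was lower at -2.04 ± 0.52 and Cebpd at -0.49 ± 0.09, while Stat3 was higher at 0.46 ± 0.12 (limma adjusted p = 0.00891, 0.000737 and 0.00964). Of 9 other genes with an S100 name, 5 were tested and 1 was called, S100pbp, higher in spleen by 0.39 ± 0.10 (limma adjusted p = 0.0136). S100pbp encodes an S100-binding protein and is not itself a member of the family. Its probe read low, with a mean of 4.98, where S100b, detected on 0 arrays, averaged 4.21. Another kept S100pbp probe (mean 4.87) is not described.

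Leukaemic and non-leukaemic macrophages were compared next, within each tissue. In the spleen 0 of 8 S100 genes were called by limma (0.00838% of all genes), none with an unadjusted p under 0.05, and 4 fitted differences were above 0 and 4 below. S100a8 differed by 0.12 ± 0.61 (95% interval -1.14 to 1.38) and S100a9 by 0.0043 ± 0.70 (-1.45 to 1.46), so these arrays leave room for changes of over 2-fold in either direction. Within the classes 0 of 8 were called by limma in KO spleen (0% of all genes) and in WT spleen (0.142% of all genes), and 0 and 1 of the 8 had an unadjusted p under 0.05. In WT spleen S100a8 was 9.45, 9.04 and 13.61 with leukaemia and 9.51, 11.21 and 9.94 without it, and the WT-l mean lay above that of WT-nl through replicate 3 alone. S100a10 in KO spleen was 8.73 to 8.95 with leukaemia and 9.24 to 9.73 without it, with no overlap, at -0.63 ± 0.40 (limma adjusted p = 0.883).

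In the marrow 0 of 8 S100 genes were called by limma (0.00838% of all genes), and 1 had an unadjusted p under 0.05. The largest fitted differences were those of S100a4, 0.80 ± 0.39, and S100a10, 0.70 ± 0.26 (limma adjusted p = 0.347 and 0.223). S100a4 in KO marrow had a lowest of 8.05, a median of 8.42 and a highest of 9.16 with leukaemia, against 6.96, 7.48 and 7.75 without it, so these groups did not overlap. In WT marrow it read 7.70, 7.22, 9.56, 8.52 and 9.48 with leukaemia, against 8.01, 8.05 and 7.95 without it. The leukaemic arrays on slide 6 read 8.51 to 9.16 in KO and 8.52 to 9.56 in WT, above the other leukaemic marrow arrays, at 8.05 to 8.32 in KO and 7.22 to 7.70 in WT. S100a10 split the same way, 9.99 to 10.52 and 10.07 to 10.36 on slide 6, against 9.27 to 9.41 and 8.95 to 9.46 on other slides. Without slide 6, a setting chosen after seeing the data, the differences were 0.12 ± 0.44 for S100a4 and 0.18 ± 0.29 for S100a10. These average opposite signs. S100a4 was at 0.77 ± 0.59 in KO and -0.54 ± 0.66 in WT, and S100a10 at 0.50 ± 0.38 and -0.15 ± 0.42, none called. S100a8 and S100a9 differed by -0.021 ± 0.55 and 0.18 ± 0.64 in the marrow. Neither KO nor WT marrow alone gave a call of an S100 gene with limma (0% and 0% of all genes; 2 and 0 of the 8 at an unadjusted p under 0.05). The difference between tissues in the leukaemia effect was tested directly and gave 0 of 8 calls with limma (0% of all genes; 0 of 8 at an unadjusted p under 0.05). It was largest for S100a4, -1.15 ± 0.58 (limma adjusted p = 0.398).

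**Figure D4:**
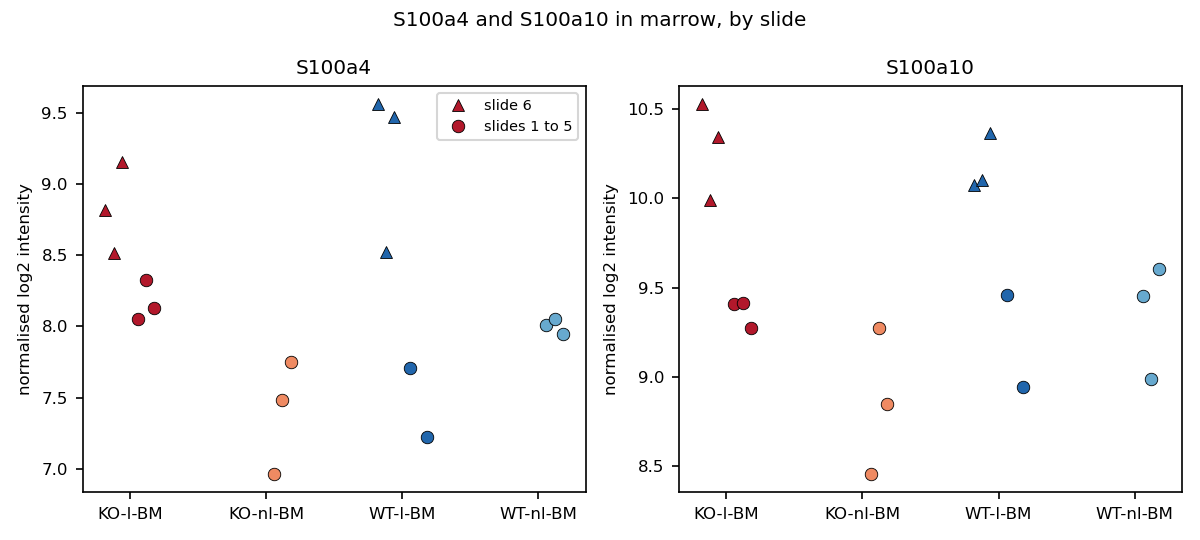
S100a4 (left) and S100a10 (right) in the 4 marrow groups, normalised log2 intensity, with triangles for arrays on slide 6 and circles for arrays on the other slides; colours mark the groups. Every slide 6 array of a group lies above the other arrays of that group for both genes, and non-leukaemic marrow has no array on slide 6.

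Calprotectin was higher in Mif-/- than in Mif+/+ macrophages in the fit, but not past the threshold. As the mean of the 4 tissue and leukaemia classes S100a8 was 12.93 in KO and 11.62 in WT, a difference of 1.31 ± 0.41, and S100a9 was 12.16 in KO and 10.77 in WT, a difference of 1.39 ± 0.48 (limma adjusted p = 0.227 and 0.308). With limma 0 of 8 S100 genes were called, against 0.687% of all genes, and S100a8 and S100a9 were the 2 of 8 with an unadjusted p under 0.05. By class the S100a8 difference was 0.81 ± 0.66 in l-BM, 0.84 ± 0.89 in nl-BM, 1.44 ± 0.83 in l-SP and 2.16 ± 0.89 in nl-SP. For S100a9 it was 0.65 ± 0.76, 0.90 ± 1.03, 1.79 ± 0.96 and 2.23 ± 1.03 in that order. No S100 gene was called within a class (0.0419%, 0.0754%, 0.0419% and 0.268% of all genes in the same order), and 0, 2, 0 and 4 of the 8 had an unadjusted p under 0.05. In non-leukaemic spleen the groups did not overlap, with S100a8 at 11.37 to 13.48 in KO and 9.51 to 11.21 in WT.

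Slide-matched values ran the same way. Of 8 KO minus WT differences within a slide that held both genotypes of a class, all 8 were above 0 for S100a8 (0.68 to 2.48, median 1.18) and for S100a9 (0.86 to 2.54, median 1.31). Over all genes 1.31% had all 8 above 0 and 1.01% had all 8 below. None of these pairs contains WT-l-SP replicate 3, which has no KO-l-SP array on its slide. Without that 1 array the mean differences were 1.67 ± 0.33 for S100a8 and 1.83 ± 0.36 for S100a9 and both were called (limma adjusted p = 0.00683 and 0.0071). That array had the highest S100a8 (13.61) and S100a9 (13.10) of all spleen arrays, so leaving it out in part builds in a larger difference. Leaving out the 3 arrays that stand apart gave 1.48 ± 0.32 and 1.63 ± 0.36 (limma adjusted p = 0.0239 and 0.0281). WT-l-SP replicate 3 is among them, and KO-nl-SP replicate 6 is not. Leaving out slide 6 gave 1.23 ± 0.50 and 1.35 ± 0.58, neither called. Of 42 alternatives 3 called these genes: array weights, WT-l-SP replicate 3 left out alone, and the 3 arrays left out. The values are thus a description. Over the 4 classes, 12 of 13 secondary granule and later genes and 5 of 5 primary granule genes were above 0 in KO, with medians of 0.58 and 0.68. None of them was called by limma, and 5 of the 13 and 0 of the 5 had an unadjusted p under 0.05, with Camp at 1.85 ± 0.61 and Ltf at 1.97 ± 0.65 (adjusted p = 0.27 for both). By class the medians of the 13 and of the 5 were 0.83 and 0.85 in l-BM, 1.45 and 1.15 in nl-BM and 1.19 and 0.97 in nl-SP. In l-SP they were -0.48 and -0.53, with 9 of 13 and 4 of 5 genes lower in KO. S100a8 and S100a9 were above 0 there. The mean level of the 13 genes was 8.04 in KO-l-SP and 8.12 in WT-l-SP. In WT-l-SP it ran from 6.28 to 11.48 over 3 arrays, with replicate 3 the highest, so the l-SP medians rest on few and widely spread arrays. Megakaryocyte genes were above 0 in KO too, 6 of 6 over the 4 classes (median 0.55) and 6 of 6 in l-SP and in nl-SP. None of the 6 was called by limma, and 4 of them had an unadjusted p under 0.05. These megakaryocyte genes lay near the floor, with list means from 4.29 in WT-nl-SP to 5.46 in KO-l-SP. On WT-nl-SP arrays 0 to 1 of the 6 were detected, and Gp1bb and Ppbp were detected on 8 and 14 of the 30 arrays. The part of neutrophil or megakaryocyte transcripts in the calprotectin difference was not tested. The other 6 S100 genes had KO minus WT differences between -0.078 and 0.11, with S100a6 at -0.078 ± 0.08 (95% interval -0.25 to 0.095).

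**Figure D5:**
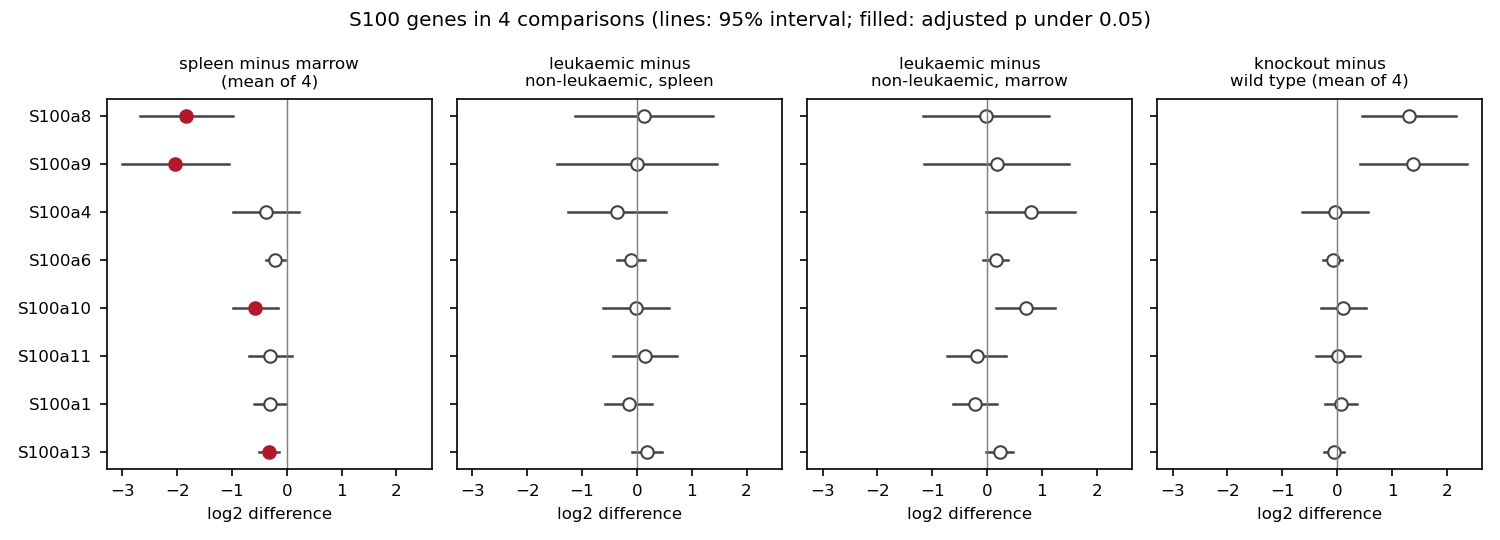
Fitted log2 differences of the 8 S100 genes in 4 comparisons, with lines for the 95% interval and filled points for a limma adjusted p under 0.05. The 4 filled points of spleen minus marrow run from -2.03 for S100a9 to -0.32 for S100a13, and no point is filled in the other 3 comparisons.

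The genes other than calprotectin varied together in part. S100a4 and S100a10 correlated at 0.763 over the 30 arrays (Spearman 0.777), at 0.602 over the spleen arrays and at 0.872 over the marrow arrays. S100a10 and S100a13 correlated at 0.763, but at 0.123 in the spleen without the 2 arrays farthest from the S100a10 median. S100a4 and S100a8 correlated at -0.15 over all arrays, -0.57 over the spleen arrays and -0.22 over the marrow arrays, and at -0.61 after removal of group means. S100a1 and S100a13, neighbours with overlapping promoter entries, correlated at 0.201. The genes most like S100a4 were Ern1 (0.905), Dnase1l1 and Clec7a (0.885 each), and those most like S100a10 were Hsd17b10 (0.863), Rassf8 (0.843) and Atp5h (0.837). S100a11 was closest to Dennd11 (0.859), Ints12 (0.850) and Hp (0.846), S100a13 to 1700029P11Rik (0.825), Rbks (0.799) and Ugt1a6a (0.790). S100a1 was closest to Pld1 (0.795), Pkm (0.794) and Cep83 (0.773), and S100a6 to Ten1 (0.726), BC005537 (0.688) and Pkig (0.683), the weakest likeness of the 8.

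Ranked by group mean, S100a8 was highest in KO-nl-BM (13.62 ± 0.26, SD), followed by KO-l-BM (13.59 ± 0.38), WT-nl-BM (12.78 ± 0.85), WT-l-BM (12.78 ± 0.86), KO-nl-SP (12.38 ± 1.06), KO-l-SP (12.14 ± 1.51), WT-l-SP (10.70 ± 2.52) and WT-nl-SP (10.22 ± 0.88). No pair of neighbours in that order differed by more than the larger SD of the pair, and the same held for S100a9, S100a4, S100a6, S100a10 and S100a1. Both calprotectin genes had the 4 marrow groups above the 4 spleen groups and, within each tissue, the KO groups above the WT groups. S100a4 was highest in KO-l-BM (8.50 ± 0.43) and lowest in KO-nl-BM (7.40 ± 0.40), and S100a10 highest in KO-l-BM (9.83 ± 0.54) and lowest in WT-nl-SP (8.35 ± 1.01). S100a6 ran from 10.31 ± 0.20 in WT-l-BM to 9.80 ± 0.26 in WT-l-SP. For S100a11, highest in KO-nl-BM (12.86 ± 0.64) and lowest in WT-nl-SP, the step between KO-l-BM (12.57 ± 0.23) and KO-l-SP (12.11 ± 0.30) exceeded the larger SD. For S100a13 such a step lay between KO-l-BM (8.62 ± 0.19) and KO-nl-SP (8.36 ± 0.20). S100a1 was highest in KO-nl-BM (6.85 ± 0.14) and lowest in KO-l-SP (6.24 ± 0.58).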

How the data were processed

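F4/80+ macrophages from 30 samples were each hybridised to 1 bead array. In the non-normalised table the authors deposited linear probe intensities, each with its detection p-value. The authors also deposited log2 values, used here as an alternative. Partek is named for them in the submitters' processing notes, and its version and the normalisation are not given in the sources used here. Array medians of these log2 values were 6.405 to 6.412, and each column correlated with that array's own log2 intensity at 0.99 to 0.997. This settles scale and direction, while the centring remains unknown. Against the levels used here the S100 values were shifted by slide, differently for each gene. S100a8 in KO-l-BM replicate 3 (slide 3) was 13.45 here and 14.87 there, and in KO-nl-BM replicate 3 (slide 5) 13.70 and 12.61. S100a11 on the slide 3 array was 12.59 and 12.78. Calls with the authors' values may also reflect these shifts.

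Background correction and quantile normalisation were done with neqc (limma 3.58.1, R 4.3.3, offset 16; background statistics were derived from detection p-values). A probe was kept where at least 3 arrays had a detection p under 0.05, which left 23515, and the probe with the highest mean stood for its gene. The platform annotation gives 34885 probes 1 symbol, 18 several and 10378 none; 34807 were matched to RefSeq for current symbols. Arrays had raw medians of 76.5 to 96.8 and detected 16492 to 18567 probes. Precision is limited by how many arrays each group has.

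A model with the 8 groups was fitted to all arrays (lmFit, eBayes), and each of 17 contrasts was adjusted over 11937 genes by Benjamini-Hochberg, with a threshold of 0.05. On simulated data for the spleen and marrow contrast, 92 of 100 genes changed 2-fold were recovered and 99 of 100 changed 4-fold, with 11 false calls. In the measured contrast S100a8 and S100a9 had an SE of 0.41 and 0.48, and recovery at their spread was not tested. The S100 genes and all gene lists were chosen with earlier results of these data known. Named genes of each list are the called ones with the smallest p, up to 4, or up to 2 where none is called. Likeness is the Pearson correlation over the 30 arrays among genes detected on at least 15. Alternatives covered the authors' values, background correction, scaling, filters, probe choice, slide, replicate number, array weights, the samples in the fit and each array left out. Protein sequences were not used here.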

Additional observations from a re-analysis of the deposited data

Results flagged for a closer look

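Of 24 sets of 4 or more arrays of 1 group that were examined, 3 groups for each of the 8 S100 genes, 2 held an array far from the others by Dixon's criterion; chance alone flags about 1 in 20. S100a10 in KO-l-SP replicate 4 read 8.95, against 8.73 to 8.75 in the other 3 arrays of that group. S100a1 in KO-l-BM replicate 1 read 7.30, against at most 6.85 in the other 5 arrays. The cause was not tested for either.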

How the results depend on the processing

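No direction of a called difference turned under any alternative. In spleen minus marrow over the 4 classes, the 4 called S100 genes became 2 with 75th percentile scaling, 2 with slide as a fixed block and 2 without slide 6, S100a8 and S100a9 each time, 6 with array weights, 5 with the authors' values (S100a10 lost) and 3 to 4 with 1 array left out. Calls over all genes moved too, from 1880 to 1402, 1308, 1236, 3241 and 3276 in the same order, fits without 1 array aside. Calls in single classes moved more. In KO-l spleen minus marrow, 0 calls became 1 with the authors' values, 1 with array weights and 3 without the 3 arrays that stand apart. Over all genes the KO-l calls went from 280 to 728, 876 and 1346 in that order. In WT-l, 0 became 2 with array weights, 2 without those 3 arrays and 0 to 2 with 1 array left out. The WT-l calls over all genes went from 2 to 269 with array weights and 90 without the 3 arrays. In WT-nl, 1 became 4 with the authors' values, 3 with array weights, 2 with slide as a block, 0 with 75th percentile scaling, no filter, only the groups compared, those 3 arrays left out, slide 6 left out or the replicate block, and 0 to 1 with 1 array left out. WT-nl calls over all genes went from 461 to 1929, 1483 and 737 in the first 3 of these settings. They went to between 78 and 335 in the settings with 0. For leukaemia in marrow, 0 became 3 with array weights, and 2 in KO marrow. Over all genes these calls went from 1 to 2235 and, in KO marrow, from 0 to 351. For KO minus WT over the 4 classes, 0 became 2 with array weights, 2 without the 3 arrays and 0 to 2 with 1 array left out, always S100a8 and S100a9, and in nl-BM 0 became 1 with array weights. KO minus WT calls over all genes went from 82 to 205 with array weights and 114 without the 3 arrays. In nl-BM they went from 9 to 1448 with array weights. Percentile scaling moved the median of all genes to -0.119 in WT-nl spleen minus marrow, -0.128 for leukaemia in WT marrow and -0.11 for KO minus WT in nl-BM. The cause of these changes was not tested.

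Deviations of 31 same-numbered pairs of arrays correlated at -0.50 to 0.48 (median 0.047). Many of these pairs join different genotypes or disease states, and weak correlation cannot show whether arrays share a mouse. The replicate block is given only here, as an alternative. With slide as a random block the consensus correlation was 0.016.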
